A study of Mus musculus with 96 samples.

Results

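The Hox-cluster miRNAs miR-10 and miR-196 were followed as 6 mature sequences, mmu-miR-10a-5p, mmu-miR-10a-3p, mmu-miR-10b-5p, mmu-miR-10b-3p, mmu-miR-196a-5p and mmu-miR-196b-5p. They were chosen by name from the 1978 mature sequences listed in the count table of every library. The choice set no rule on their counts, but earlier results of these data were known when it was made. Each miRNA is cut from a hairpin whose left arm gives the 5p and whose right arm gives the 3p sequence, and one arm is usually kept while the other is degraded. The seed, bases 2 to 8 of the mature miRNA, does most of the pairing with target mRNAs. The miR-10 and miR-196 genes lie within the clusters of Hox genes, which encode transcription factors that give cells their position along the body axis. miR-10 is known for its part in vascular endothelial cells, in angiogenic sprouting and in restraining inflammatory signalling, and miR-196b is known from hematopoietic progenitors and leukemias with active HOXA genes.

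The mice were male C57Bl/6J animals of 12 to 14 weeks, which underwent permanent ligation of the left anterior descending coronary artery to induce myocardial infarction (MI). D0 was the control group of mice without MI, which had no operation, and hearts were taken at D1, D3, D7, D14 and D28 after MI. In a change against D0, the effects of the surgery and of the MI cannot be told apart. Small RNA was sequenced from cardiomyocytes (CMs, collected by slow centrifugation), endothelial cells (ECs, bound to beads against CD144), fibroblasts (FBs, collected by plating) and hematopoietic cells (HCs, bound to beads against CD45). There were 4 libraries in each of the 24 groups of cell type and day, 96 in all, with the RNA of 3 mice, or of 2 when a sample was lacking, combined into each library. The study's methods state that the cell types of a day came from the same mice, but not which libraries share them, and the tests between cell types treated the libraries as independent. Libraries of CMs were made from 500 ng of RNA with 14 PCR cycles, those of ECs from 50 ng with 16, and those of FBs and HCs from 150 ng with 15, so cell type and library preparation cannot be told apart.

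The total count on mature miRNAs ran from 3327351 to 24279105 in CMs, from 525651 to 29037628 in ECs, from 2217588 to 65588543 in FBs and from 18286 to 29504666 in HCs. The lowest total was that of HC D0 replicate 3, in which a count of 0 allows up to 3 counts. Every marker fixed for CMs (4), ECs (2), FBs (3) and HCs (4) had its highest mean in its own cell type, but none of them was absent elsewhere. The HC marker miR-150-5p was nearly as high in ECs, with means of 2544 CPM in ECs and 2586 CPM in HCs. Levels are given as CPM, the count scaled by the sum of mature counts of the library, and a change is a log2 fold change from edgeR, which scales libraries with TMM factors. The choice of scaling matters most in CMs, where TMM factors of D0 were 0.29 to 0.36 and those of the later days 0.49 to 2.04. With library size alone, the changes of all tested miRNAs of CMs had medians of 1.42 to 2.99 at the 5 days, against 0.20 to 0.44 with TMM.

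The mature sequences are shown because 2 pairs of members differ by a single base, which bears on what their counts can separate. The seed is in capitals, and all 6 members were matched by name to mature miRNAs of RefSeq on GRCm38.p6.
mmu-miR-10a-5p: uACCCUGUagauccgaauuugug
mmu-miR-10b-5p: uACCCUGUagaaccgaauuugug
mmu-miR-196a-5p: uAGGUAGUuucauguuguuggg
mmu-miR-196b-5p: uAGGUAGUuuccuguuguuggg
mmu-miR-10a-3p: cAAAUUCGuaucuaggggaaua
mmu-miR-10b-3p: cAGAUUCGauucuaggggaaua
With positions counted from 1 at the 5′ end, miR-10a-5p differs from miR-10b-5p by U12A and miR-196a-5p from miR-196b-5p by A12C, both outside the seed. miR-10a-3p differs from miR-10b-3p at 3 positions, A3G, U9A and A10U, of which the first lies in the seed. Among 1679 matched names, the seed of the miR-10 5p arms occurred in no sequence other than these 2, and the same held for the seed of the miR-196 5p arms.

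In the GENCODE annotation of GRCm38, Mir10a lies at chr11:96317165-96317274 on the plus strand, outside any other gene and 992 bases before Hoxb4. Mir10b lies at chr2:74726070-74726137 on the plus strand, within introns of Hoxd3 and Hoxd4. miR-196a-5p is made from 2 genes, Mir196a-1 at chr11:96265164-96265265, which is intergenic and 6191 bases from Hoxb9, and Mir196a-2 at chr15:102973350-102973434, which lies in an intron of a Hoxc5 transcript and 1456 bases from Hoxc10. Mir196b lies at chr6:52230081-52230165 on the minus strand and overlaps an exon of Hoxa9.

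The counts of the 5p arms of miR-10 were nearly alike in every library. Over the 96 libraries the ratio of miR-10a-5p to miR-10b-5p counts lay between 0.977 and 1.49 with a median of 1.12, and its SD on the log2 scale was 0.11. The 16 pairs of listed miRNAs that differ by 1 base had a median SD of 0.22 and a median absolute log2 ratio of 0.42, against 0.83 and 2.07 for the 24 pairs that differ by 2 bases. Over the 86 libraries with at least 20 counts of the pair, the log2 ratio of miR-10b-3p to miR-10a-3p ran from -7.60 to -1.07 with an SD of 1.55, on far fewer counts than the 5p pair. How a read that matches both 5p sequences was counted is not given in the sources used here, so the levels of miR-10a-5p and miR-10b-5p are described as 1 signal, while their ratio and the 3p arms are given separately. The same limit holds for miR-196a-5p and miR-196b-5p, whose ratio ran from 0.143 to 1.44.

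**Figure D1:**
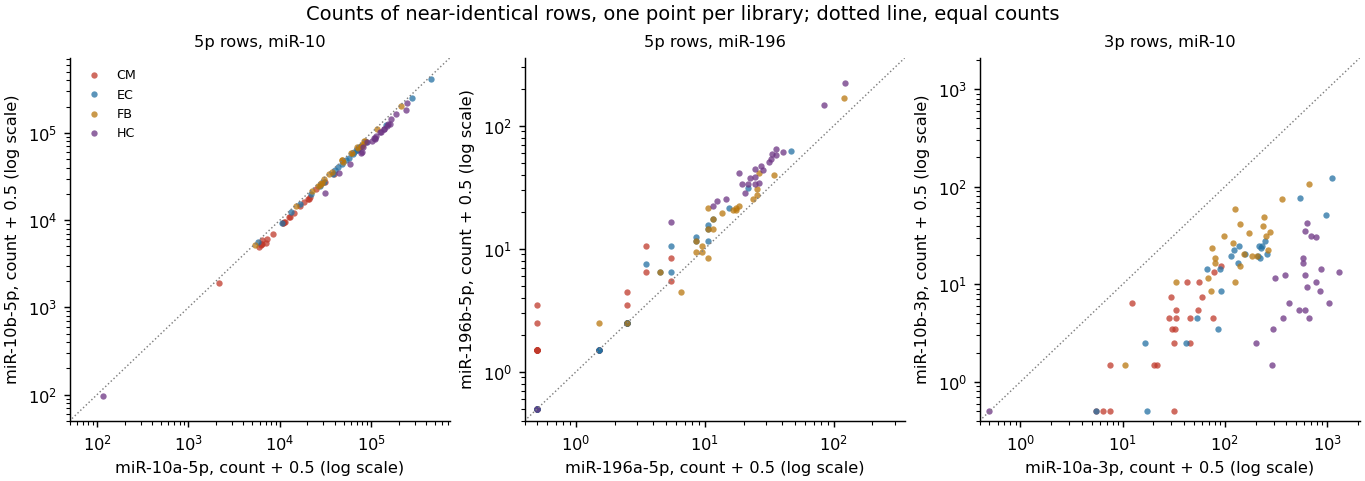
Each point is 1 of the 96 libraries, placed by the counts of 2 near-identical sequences plus 0.5 on log axes, coloured by cell type, and the dotted line marks equal counts. The 5p pair of miR-10 follows the line with ratios of 0.977 to 1.49, whereas the 3p pair scatters, with ratios up to 194 in the library farthest from it.

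miR-10a-5p was highest in ECs, where the 24 libraries ran from 11099 to 40115 CPM with a median of 14590. In HCs it ran from 6184 to 15199 CPM with a median of 9632, in FBs from 1531 to 5165 CPM with a median of 2932, and in CMs from 510 to 1925 CPM with a median of 875. Among the listed miRNAs its mean CPM held rank 16 in ECs, 26 in HCs, 41 in FBs and 49 in CMs. miR-10a-3p was far lower, at 41.9 ± 15.02 CPM in ECs and 47.6 ± 17.9 CPM in HCs (SD, n = 24), 8.85 ± 2.78 CPM in FBs and 2.98 ± 1.77 CPM in CMs. miR-10b-3p had its highest mean in ECs, 4.45 ± 2.27 CPM, against 1.51 ± 0.56 in FBs, 0.836 ± 0.505 in HCs and 0.426 ± 0.498 in CMs. Averaged over the days, miR-196a-5p and miR-196b-5p were highest in HCs, with means of 2.74 and 4.70 CPM. The HC mean of miR-196b-5p was 1.09 CPM at D0, with the 0 of the shallow replicate 3 averaged in, and 10.1 CPM at D1. Both were nearly undetected in CMs, with 27 and 55 counts over the 24 libraries. The opposite arms of miR-196 were not detectable at this depth, with 7 counts of miR-196a-1-3p and 0 of miR-196a-2-3p and miR-196b-3p over the 96 libraries.

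**Figure D2:**
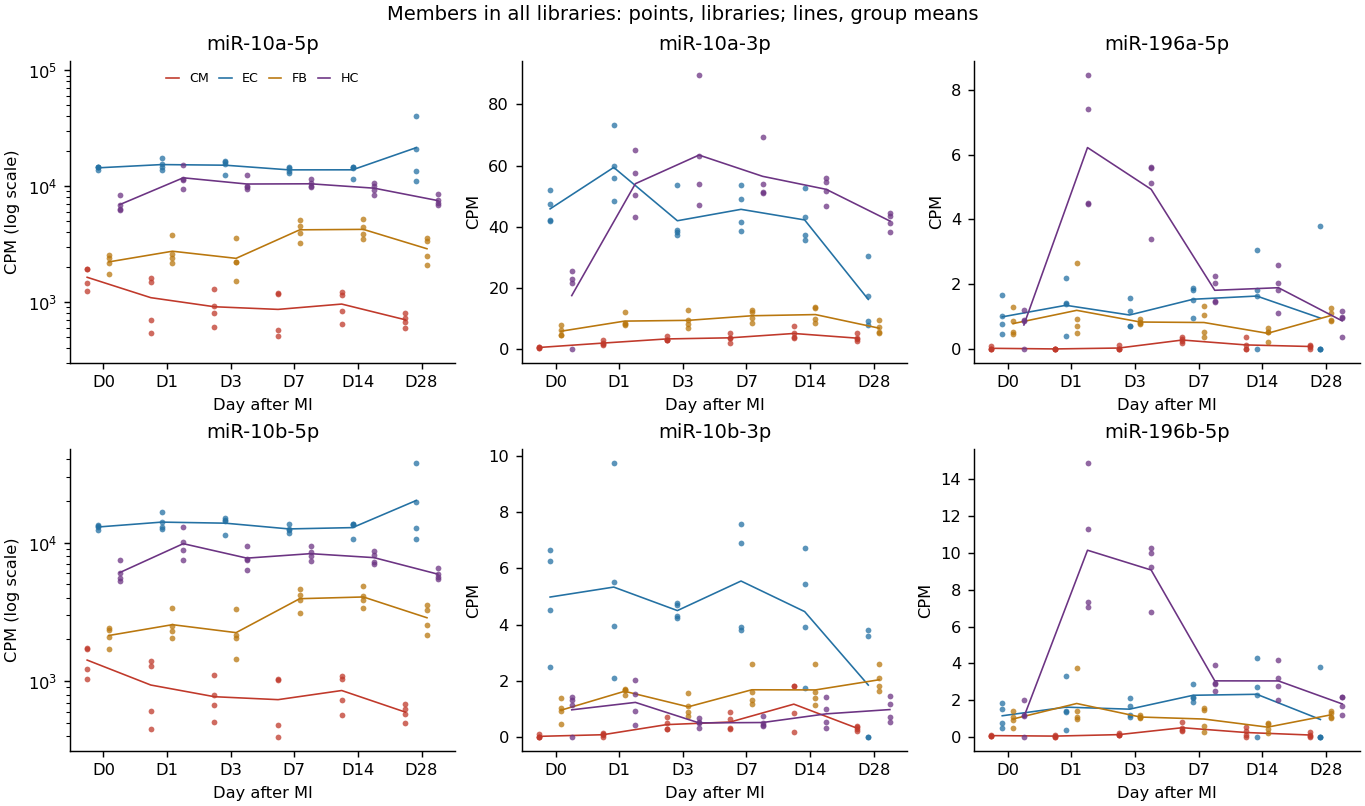
Each panel plots 1 member, with the day after MI on the x axis and CPM on the y axis (a log axis for the 5p arms of miR-10). Points are libraries and lines join group means of the 4 cell types. The 5p panels of miR-10a and miR-10b are nearly the same picture with ECs on top, while the miR-196 panels show HCs peaking at D1 and D3.

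Between cell types, 31 of the 36 comparisons of a member passed (edgeR quasi-likelihood test on means over days, Benjamini-Hochberg adjusted p under 0.05). The background was also high, with 69.4% of the 712 miRNAs tested passing between CMs and ECs, 75.7% between CMs and FBs, 77.7% between CMs and HCs, 71.8% between ECs and FBs, 77.7% between ECs and HCs and 85.7% between FBs and HCs. miR-10a-5p was higher in ECs than in HCs by 1.52 ± 0.13 (log2, SE), than in FBs by 2.52 ± 0.14 and than in CMs by 2.47 ± 0.14. HCs exceeded FBs (FBs minus HCs -1.0 ± 0.13), and the difference of CMs minus FBs was 0.05 ± 0.13 (adjusted p = 0.754) and turned to -1.60 with library size alone. miR-10a-3p had the same order of ECs, HCs and FBs in this fit, with FBs minus HCs at -1.81 ± 0.10 and ECs minus HCs at 0.50 ± 0.10, but the latter turned to -0.26 with library size alone and to 0.01 without the filter on low counts. miR-10b-3p was lower in HCs than in ECs, with ECs minus HCs at 3.11 ± 0.21, and also lower than in FBs, with FBs minus HCs at 1.39 ± 0.19. For the order of miR-196b-5p, HCs exceeded FBs (FBs minus HCs -1.22 ± 0.18), whereas the difference of ECs minus FBs, 0.67 ± 0.29, did not pass in 24 of the 48 fits that left out 1 library, among them the fit without EC D28 replicate 1, at -0.23. In whole-cell pools such as these, a smaller number of cells of a kind and less RNA per cell cannot be told apart.

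In hearts without MI the order of miR-10a-5p by CPM was the same, with FBs and CMs close together. At D0 miR-10a-5p measured 14733, 14531, 13763 and 14536 CPM in ECs and 6184, 6833, 6344 and 8327 CPM in HCs. It measured 2546, 2412, 1732 and 2191 CPM in FBs and 1234, 1459, 1925 and 1924 CPM in CMs. No 2 cell types overlapped in CPM except FBs and CMs. Of the 36 member comparisons at D0, 23 passed, against 54.5% of all miRNAs between CMs and ECs, 60.7% between CMs and FBs, 57.3% between CMs and HCs, 53.4% between ECs and FBs, 43.7% between ECs and HCs and 55.1% between FBs and HCs. With TMM, miR-10a-5p of CMs was above FBs by 2.51 ± 0.34 and above HCs by 1.30 ± 0.32, but with library size alone these differences were -0.44 and -2.08, so the place of CMs at D0 depended on the scaling. CMs minus ECs with TMM was -0.46 ± 0.32 and did not pass (adjusted p = 0.220, edgeR quasi-likelihood test), so the lead of ECs over CMs at D0 was not called. The difference of ECs minus FBs, 2.97 ± 0.34, and that of ECs minus HCs, 1.76 ± 0.33, kept their sign and passed under every alternative. For the miR-196 pair no excess of HCs over ECs or FBs passed at D0. ECs minus HCs was 0.50 ± 0.48 for miR-196b-5p and 0.75 ± 0.52 for miR-196a-5p. FBs minus HCs was -0.24 ± 0.46 and 0.10 ± 0.48 in the same order.

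In HCs, the miR-196 pair rose after MI and returned. miR-196b-5p measured 2.00, 1.20, 0 and 1.15 CPM at D0, from 53, 33, 0 and 34 counts, and 11.3, 7.33, 7.05 and 14.9 CPM at D1. It measured 10.0, 9.22, 10.3 and 6.78 CPM at D3 and 1.19, 2.16, 2.15 and 1.69 CPM at D28. Every library of D1 and D3 lay above D0 replicates 1, 2 and 4, while D28 overlapped them. The 0 of D0 replicate 3 came from a total of 18286 counts and cannot be placed against these levels. The rise was 2.37 ± 0.30 at D1 (log2, SE, adjusted p = 4.74e-07, edgeR quasi-likelihood test) and 2.14 ± 0.30 at D3 (adjusted p = 9.49e-07), and the change at D28 was 0.01 ± 0.29. miR-196a-5p rose by 2.21 ± 0.33 at D1 (adjusted p = 3.93e-06) and by 1.82 ± 0.33 at D3 (adjusted p = 3.46e-05), from 1.21, 0.869, 0 and 0.881 CPM at D0 to 4.48 to 8.46 CPM at D1. These 4 calls held without any single library and under every alternative. At D7 and D14 neither passed with TMM, although miR-196b-5p at D7, 0.66 ± 0.30, passed without D0 replicate 1 (0.92) or D7 replicate 3 (0.83). At D14 its change of 0.72 ± 0.29 passed without D0 replicate 1 (0.98) or D14 replicate 4 (0.82).

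The 3p arms of miR-10 moved in opposite directions in HCs. miR-10a-3p measured 22.9, 25.5, 0 and 21.4 CPM at D0, where the 0 is that of the shallow replicate 3. It measured 57.7, 50.3, 43.1 and 65.1 CPM at D1 and 63.1, 53.9, 47.0 and 89.7 CPM at D3. It then stood at 51.2, 51.2, 54.0 and 69.5 CPM at D7, 54.7, 51.6, 55.9 and 46.6 CPM at D14 and 43.5, 38.2, 41.1 and 44.5 CPM at D28. Every library after MI lay above every library of D0. The rise was 0.79 ± 0.19, 0.90 ± 0.20, 0.88 ± 0.19, 0.83 ± 0.19 and 0.55 ± 0.19 at the 5 days in order, and it passed at each of them (adjusted p = 0.00146, 0.000297, 0.000541, 0.00237 and 0.0366, edgeR quasi-likelihood test). Only the call at D28 was lost when 1 library was left out, namely D0 replicates 1 or 4 (0.52 and 0.53) or D28 replicates 1, 3 or 4 (0.51, 0.57 and 0.51).

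miR-10b-3p of HCs fell. Its 1.32, 1.12, 0 and 1.42 CPM at D0 came from 35, 31, 0 and 42 counts, and its 0.678, 0.540, 0.481 and 0.308 CPM at D3 came from 4, 13, 3 and 1 counts. At D7 it measured 0.730, 0.417, 0.512 and 0.403 CPM. Apart from replicate 3 with its 0, the D0 libraries lay above all of D3 and D7. miR-10b-3p fell by 1.81 ± 0.47 at D3 (adjusted p = 0.00196) and by 1.77 ± 0.45 at D7 (adjusted p = 0.00199, edgeR quasi-likelihood test), and no other day passed. At D14 the change of -0.99 ± 0.42 passed without D14 replicate 4 (-1.46). The 5p signal of miR-10 did not pass at any day in HCs with TMM. miR-10a-5p measured 15199, 11421, 9388 and 11207 CPM at D1, all above the 6184 to 8327 CPM of D0, and its change was 0.41 ± 0.18 (adjusted p = 0.0545). It was 0.77 with library size alone and 0.59 in DESeq2 and passed in both, and it passed without D0 replicate 4 (0.57) or D1 replicate 3 (0.48). The change of miR-10b-5p at D1, 0.32 ± 0.19, passed without D0 replicate 4 (0.50).

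In HCs 4 of the 6 members changed over the days, against 73.5% of the 608 miRNAs tested, and 11 of 30 member changes against D0 passed. The share of all miRNAs that passed was 54.3%, 59.0%, 49.5%, 28.1% and 24% at the 5 days in order. Markers of other cells moved with these changes. The summed level of the 2 EC markers in HCs was 54905 to 91837 CPM at D0 and 14781 to 21541 CPM at D3, and that of the 2 mural cell markers was 21695 to 32350 CPM at D0 and 4768 to 7316 CPM at D3. The summed level of the 4 CM markers was 85776 to 132287 CPM at D0 and 25975 to 45415 CPM at D7, whereas that of the 4 HC markers was 6819 to 10015 CPM at D0 and 18244 to 25731 CPM at D1. Among the HC markers, miR-223-3p and both arms of miR-142a had their lowest day mean at D0, but miR-150-5p had its lowest at D1 (1900 CPM). The part of these shifts in the changes of the members was not tested.

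In CMs the 5p signal fell while the 3p arm did not. miR-10a-5p measured 1234, 1459, 1925 and 1924 CPM at D0 and 1617, 1498, 546 and 702 CPM at D1. It measured 1308, 918, 807 and 609 CPM at D3 and 510, 570, 1193 and 1184 CPM at D7. At D14 it stood at 1152, 1215, 643 and 833 CPM and at D28 at 806, 727, 600 and 679 CPM. The libraries of D7, D14 and D28 all lay below those of D0, while D1 and D3 overlapped D0. miR-10a-5p fell at each day, with changes from D1 to D28 of -1.48 ± 0.47, -2.73 ± 0.50, -3.23 ± 0.51, -3.37 ± 0.51 and -2.86 ± 0.50 (adjusted p = 0.0272, 9.62e-05, 1.09e-05, 7.06e-06 and 9.11e-05, edgeR quasi-likelihood test with TMM). With library size alone the changes were -0.58, -0.84, -0.92, -0.77 and -1.22, and that of D1 did not pass. The call at D1 was also lost without D0 replicates 2, 3 or 4 (-1.42, -1.25 and -1.40) or D1 replicates 3 or 4 (-1.18 and -1.20), and those same libraries decided the call of miR-10b-5p at D1, -1.49 ± 0.49, with values of -1.44, -1.24, -1.40, -1.19 and -1.21. The other calls of miR-10a-5p held without any single library.

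The 3p arm of miR-10a was at the edge of detection in CMs at D0, with 7, 5, 6 and 7 counts and levels of 0.666, 0.354, 0.374 and 0.535 CPM. At D28 it measured 2.43, 5.10, 3.12 and 3.42 CPM. All D28 libraries lay above all D0 libraries. miR-10a-3p rose by 1.13 ± 0.33 at D28 (adjusted p = 0.00614), by 0.85 ± 0.33 at D3 (adjusted p = 0.0322) and by 0.84 ± 0.33 at D14 (adjusted p = 0.0307, edgeR quasi-likelihood test), while its test over all days did not pass (adjusted p = 0.0743). The call at D3 was lost without D0 replicates 2, 3 or 4 (0.73, 0.76 and 0.80) or D3 replicates 1, 2 or 3 (0.78, 0.80 and 0.70). The call at D14 was lost without D0 replicates 2, 3 or 4 (0.74, 0.77 and 0.81) or D14 replicates 1 or 4 (0.41 and 0.68), and the change at D1, 0.76 ± 0.34, passed without D0 replicate 1 (0.95). With library size alone all 5 days passed, with changes of 1.98 to 3.40. miR-10b-3p had 1, 0, 0 and 0 counts in CMs at D0 and 10, 1, 6 and 13 counts at D14, the only day that passed (adjusted p = 0.0161). Its D0 level rests on 1 count, so its fitted changes are no bound on a fold. The call was lost without D0 replicates 3 or 4 or D14 replicate 1 (log2 fits of 2.69, 2.66 and 2.61). D3, D7 and D28 passed without D0 replicate 1 (5.33, 5.33 and 5.12), which leaves D0 with 0 counts. The miR-196 members had too few counts in CMs to be tested.

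Of the 4 members tested in CMs 2 changed over the days, against 73.8% of 484 miRNAs, and 14 member changes against D0 passed. From D1 to D28 the share of all miRNAs that passed was 25.0%, 55.2%, 69.0%, 67.1% and 54.3%. The markers of ECs, summed in CMs, went from 4423 to 9789 CPM at D0 to 19277 to 27651 CPM at D14, those of FBs from 36.5 to 114 CPM to 1358 to 2188 CPM, and the summed HC markers from 14.6 to 75.8 CPM at D0 to 161 to 298 CPM at D7. These sums are in CPM and not scaled with TMM, unlike the fitted changes of the members. The part of the other cells in the changes was not tested.

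In FBs, the 5p signal of miR-10 and miR-10a-3p rose at D7 and D14. miR-10a-5p measured 2546, 2412, 1732 and 2191 CPM at D0 and 4538, 3930, 3253 and 5076 CPM at D7. At D14 it measured 5165, 3883, 4414 and 3487 CPM and at D28 2102, 2492, 3346 and 3593 CPM. The libraries of D7 and D14 all lay above those of D0, and D28 overlapped D0. miR-10a-5p rose by 0.71 ± 0.22 at D7 (adjusted p = 0.0113) and by 0.91 ± 0.22 at D14 (adjusted p = 0.00388, edgeR quasi-likelihood test), and both calls held without any single library. miR-10a-3p moved with it, from 7.97, 4.51, 4.52 and 6.17 CPM at D0 to 11.9, 8.61, 10.0 and 12.8 CPM at D7 and 13.3, 8.42, 13.6 and 9.67 CPM at D14, again with no overlap. It rose by 0.66 ± 0.25 at D7 (adjusted p = 0.0301) and by 0.89 ± 0.24 at D14 (adjusted p = 0.00824). The call at D7 was lost without D0 replicates 2, 3 or 4 (0.62, 0.55 and 0.67) or D7 replicates 1 or 4 (0.60 and 0.55).

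miR-10b-3p of FBs did not pass at D7 (0.35 ± 0.35) or D14 (0.61 ± 0.34) and passed at D28 alone, with 1.04, 0.451, 0.915 and 1.41 CPM at D0 and 2.60, 1.62, 1.83 and 2.09 CPM at D28. It rose by 1.10 ± 0.33 (adjusted p = 0.0369), a call that was lost without D0 replicates 1, 2 or 3 (1.07, 1.00 and 1.05) or D28 replicates 1, 3 or 4 (0.94, 1.14 and 1.10). miR-10b-5p at D3, -0.24 ± 0.21, passed without D3 replicate 4 (-0.50). miR-196b-5p passed the test over all days (adjusted p = 0.0219) but at no single day. Of the 6 members 5 changed over the days, against 68.2% of 563 miRNAs, and 7 member changes against D0 passed, against 7.99%, 43.0%, 45.6%, 24.7% and 6.75% of all miRNAs from D1 to D28. The EC markers of FBs summed to 20888 to 30916 CPM at D0, 21299 to 28277 CPM at D7 and 15620 to 36886 CPM at D14, ranges that overlap.

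In ECs, where the 5p signal was highest, members passed at D28 alone. miR-10a-3p measured 52.0, 41.7, 47.3 and 42.3 CPM at D0 and 30.4, 9.29, 7.86 and 17.2 CPM at D28, from 16, 17, 5 and 67 counts. All D28 libraries lay below all D0 libraries. miR-10a-3p fell by 1.47 ± 0.30 (adjusted p = 0.000278, edgeR quasi-likelihood test), and the call held without any single library. The 5p arm went the other way in this fit by 0.68 ± 0.28 (adjusted p = 0.0474), but 1 library decided it. miR-10a-5p measured 11099, 40115, 21070 and 13596 CPM at D28 against 13763 to 14733 CPM at D0, so D28 held libraries both above and below D0. Without D28 replicate 2 the change was 0.01, and the call was also lost without any of the 4 D0 libraries (0.67, 0.66, 0.69 and 0.69 for replicates 1 to 4). The change of miR-10b-5p, 0.74 ± 0.28, was 0.07 without D28 replicate 2 and also did not pass without D0 replicates 1 to 4 (0.72, 0.72, 0.75 and 0.75). miR-10b-3p had 2, 0, 0 and 14 counts at D28, and its change of -0.94 ± 0.63 passed without D28 replicate 4 (-2.65), as did that of miR-196b-5p without D28 replicate 1 (-5.99), which leaves D28 with 0 counts of it, so that this fit is no bound.

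Of the 5 members tested in ECs 3 changed over the days, against 58.2% of 421 miRNAs. The 3 member changes against D0 all came from D28, where 47.0% of all miRNAs passed, against 0%, 17.6%, 22.6% and 14.5% on the earlier days in order. The D28 libraries of ECs were shallow, at 525651, 1829814, 636084 and 3902765 counts. Their mural cell markers summed to 22370 to 102093 CPM, against 48200 to 62913 CPM at D0, and their EC markers to 103768 to 224231 CPM, against 174749 to 215247 CPM. The part of depth and of mural cells in the changes at D28 was not tested.

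**Figure D3:**
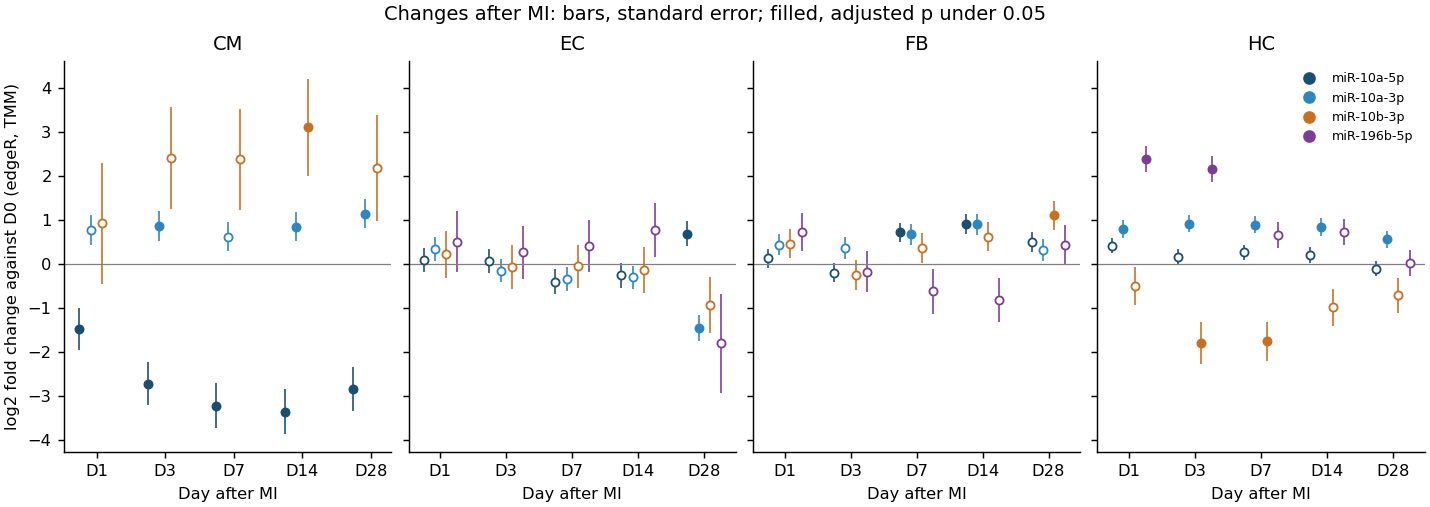
Log2 fold changes against D0 (edgeR with TMM) are plotted by day after MI in 1 panel per cell type, with bars for the standard error and filled symbols for an adjusted p under 0.05. The members drawn, where tested, are miR-10a-5p, miR-10a-3p, miR-10b-3p and miR-196b-5p. In CMs miR-10a-5p reaches -3.37, and in HCs miR-196b-5p stands near 2 at D1 and D3 only.

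The share of the 2 arms of miR-10a needs no scaling between libraries. The 5p counts used for the arm ratios keep the limit given above, since reads that match both 5p sequences may be counted for either hairpin. In CMs at D0 the ratio of 5p over 3p, on the log2 scale, was 10.76, 11.87, 12.21 and 11.71, from 89626 counts of 5p and 25 of 3p. At D1 it was 10.33, 9.95, 7.52 and 8.45, and at D28 8.35, 7.14, 7.57 and 7.61. All libraries after MI lay below those of D0. The ratio fell at each day, with changes from D1 to D28 of -2.58, -3.57, -3.79, -4.08 and -3.97, each ± 0.50 (adjusted p = 0.00158, 2.08e-05, 5.36e-06, 1.28e-06 and 8.01e-06, limma), and the 5 calls held without any single library and with a pseudocount of 5. Most hairpins of CMs changed in arm ratio as well, 70.7% of 99 over the days, and 42.4%, 68.7%, 70.7%, 72.7% and 67.7% from D1 to D28.

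In ECs the arm ratio of miR-10a rose at D28, from 8.14, 8.44, 8.18 and 8.42 at D0 to 8.47, 12.03, 11.25 and 9.62, by 2.05 ± 0.48 (adjusted p = 0.00231, limma). All D28 libraries lay above those of D0, the lowest by little, and 38.5% of 104 hairpins passed at D28 and 40.4% over the days. The arm ratio of miR-10b rose by 2.23 ± 0.83 at D28 (adjusted p = 0.0370), on 16 counts of its 3p arm, and was lost without D0 replicates 1, 2 or 4 (2.09, 2.26 and 2.05) or D28 replicates 2 or 3 (1.08 and 1.90). In FBs the ratio of miR-10a fell at D3 by 0.62 ± 0.19 (adjusted p = 0.0198), when 25.9% of 147 hairpins passed and 49.7% over the days, a call lost without D0 replicate 2 (-0.49) or D3 replicates 1 or 3 (-0.48 and -0.58).

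In HCs the arm ratios of the 2 hairpins moved in opposite directions. With 5p counts that were nearly alike, these ratios mainly restate the opposite changes of the 3p arms and are not independent of them. The ratio of miR-10a was 8.08, 8.07, 7.86 and 8.60 at D0 and 7.28, 7.54, 8.04 and 6.72 at D3, so the groups overlapped only through D0 replicate 3, whose 3p count was 0, and D3 replicate 3. It fell by 0.76 ± 0.23 at D3 (adjusted p = 0.0241, limma), a call lost without D0 replicate 4 (-0.61) or D3 replicates 1 or 4 (-0.72 and -0.53), and turned to 0.052 with a pseudocount of 5, which acts on the shallow D0 replicate 3. Without that replicate the falls of 0.70 at D7 and 0.76 at D28 also passed. The ratio of miR-10b rose by 2.62 ± 0.74 at D3 (adjusted p = 0.0154) and by 2.81 ± 0.74 at D7 (adjusted p = 0.0241), the latter lost without D7 replicates 2, 3 or 4 (2.71, 2.76 and 2.72). Without D0 replicate 3, whose 3p count was 0, the rises were 1.46 and 1.65 and still passed, and with a pseudocount of 5 neither passed (2.41 and 2.94). At D1 the change of 1.95 ± 0.74 passed without D0 replicates 2 or 4 (2.38 and 2.37). Neither hairpin passed over the days, where 15.8% of 152 hairpins did, against 22.4% at D3 and 5.92% at D7.

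Averaged over days, HCs held the lowest ratio of 5p to 3p of miR-10a, with CMs minus HCs at 1.00 ± 0.16, ECs minus HCs at 0.98 ± 0.16 and FBs minus HCs at 0.80 ± 0.16 (adjusted p = 7.86e-08, 1.07e-07 and 2.00e-05, limma). The gap to CMs was not steady over days. The mean of CMs was 11.64 at D0, on 25 counts of 3p, but 7.56 at D14 and 7.67 at D28, beside 7.52 and 7.48 in HCs. The mean of ECs was raised by D28, at 10.34 on 105 counts of 3p. The other 3 pairs did not pass, with differences of 0.01 to 0.20. For miR-10b the order turned, and HCs held the highest ratio, with FBs minus HCs at -2.03 ± 0.29, CMs minus HCs at -1.38 ± 0.29 and ECs minus HCs at -1.15 ± 0.29. This order did not hold at each day. At D0 CMs stood at 14.77, on 1 count of 3p, against 11.08 in HCs, and at D28 ECs stood at 13.64, on 16 counts of 3p, against 12.63 in HCs. Between the same cell types 68.3% of the hairpins tested passed for CMs and ECs, 68.3% for CMs and FBs, 55.9% for CMs and HCs, 56.6% for ECs and FBs, 61.4% for ECs and HCs and 38.6% for FBs and HCs. The difference of CMs minus FBs in miR-10b, 0.64 ± 0.29 (adjusted p = 0.0447), did not pass in 24 of the 48 fits without 1 library or with the replicate number as a block (adjusted p = 0.0589), and was -0.44 with a pseudocount of 5.

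**Figure D4:**
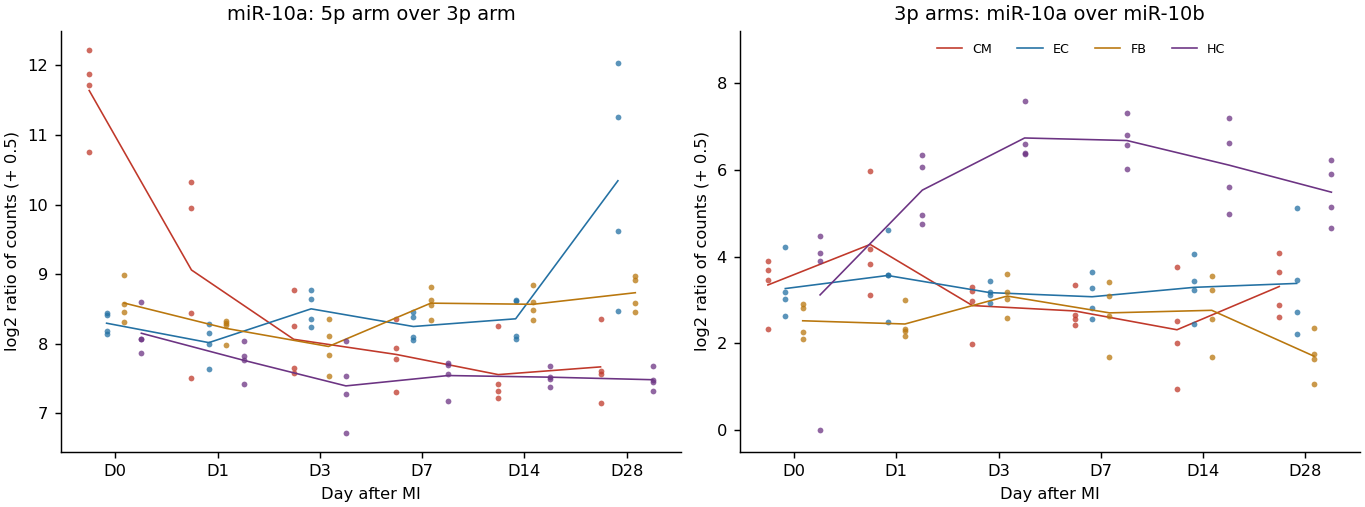
Log2 ratios of counts plus 0.5 are plotted by day after MI, with points for libraries and lines for group means of the 4 cell types. The ratio of 5p to 3p of miR-10a is highest in CMs at D0 (10.76 to 12.21), and the ratio of the 3p arms is highest in HCs after MI.

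The ratio of the 3p arms compared the less abundant arms of miR-10a, from the Hoxb cluster, and of miR-10b, from the Hoxd cluster. It reflects how much of each 3p arm is kept as well as the output of each gene. The part of each in this ratio was not tested. In HCs at D0 the log2 ratio of miR-10a-3p to miR-10b-3p was 4.09, 4.48, 0 and 3.9, where the 0 stands for no count of either in replicate 3. At D3 it was 6.37, 6.59, 6.39 and 7.60 and at D7 6.02, 6.80, 6.58 and 7.31, and at D28 5.15, 4.67, 6.22 and 5.90. Summed over libraries, 1941 counts of miR-10a-3p met 108 of miR-10b-3p at D0 and 2254 met 21 at D3, ratios of 17.97 and 107. All libraries of every day after MI lay above the 3 D0 libraries that hold a ratio. With 3 libraries against 4, the exact permutation test cannot go below p = 0.0571 (two-sided), so no change against D0 is called from it. Averaged over days without HC D0 replicate 3, HCs held the highest ratio, with CMs minus HCs at -2.71, ECs minus HCs at -2.56 and FBs minus HCs at -3.32 (each adjusted p = 2e-05, permutation test within days). This ratio was chosen after the data had been seen.

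The 5p ratio varied far less, and like the 3p ratio it was highest in HCs and lowest in FBs. The mean log2 ratio of miR-10a-5p to miR-10b-5p was 0.31 in HCs, 0.22 in CMs, 0.13 in ECs and 0.06 in FBs, and all 6 pairs of cell types reached the smallest p that 100000 resamples give (1e-05, permutation test within days). Over the 24 groups the 5p ratio and the 3p ratio had a Pearson r of 0.84 and a Spearman rho of 0.69, given as a description, since the points share libraries and depth. Against D0 no 5p ratio passed after adjustment over 20 comparisons, although D3, D7, D14 and D28 of HCs lay above D0 without overlap (exact permutation test p = 0.0286, adjusted p = 0.0952). D14 and D28 of ECs lay below D0 without overlap, by -0.042 and -0.061, with the same p and adjusted p. For the miR-196 pair, the log2 ratio of miR-196a-5p to miR-196b-5p was -0.29 in both ECs and FBs and -0.75 in HCs, with ECs minus HCs and FBs minus HCs both at 0.45 (permutation test within days, adjusted p = 3e-05 for FBs and HCs). In CMs this ratio rests on 27 and 55 counts. In ECs it rests on 167 and 234, and EC D28 held 2 of each, where the pseudocount draws the ratio toward equality. The ratios of summed counts were 0.714 in ECs, 0.774 in FBs and 0.584 in HCs. Without the 3 libraries that stood apart, HC D0 replicate 3 among them, ECs minus HCs was 0.47 and FBs minus HCs 0.50.

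Whether a change in one cell type differed from the mean change of the other 3 was tested directly, and 38 of 120 such contrasts of a member passed (edgeR quasi-likelihood test on 96 libraries). Of all 712 miRNAs, from 14 (HCs at D28) to 319 (CMs at D7) passed per cell type and day. The 5p signal of CMs differed at all 5 days, with differences for miR-10a-5p of -1.55, -2.31, -3.12, -3.39 and -3.07 from D1 to D28, when 20.5%, 39.9%, 44.8%, 43.8% and 39.6% of all miRNAs passed. In HCs miR-196b-5p differed by 2.40 at D1 and 2.25 at D3, with 26.8% and 33.7% of all miRNAs passing, and miR-196a-5p differed by 3.11 at D1, which did not pass without CM D0 replicate 4 (1.81). The mean of the other 3 includes CMs, which were nearly without counts of the pair. CMs held 4, 3 and 7 counts of miR-196b-5p at D0, D1 and D3. Of miR-196a-5p they held 1 at D0 and 0 at D1, so these differences are no bound on a fold. miR-10b-3p of HCs differed by -2.70 at D3 and -2.85 at D7, where 19.5% of all miRNAs passed. In ECs miR-10a-3p differed by -2.38 at D28, with 39.9% of all miRNAs passing. In FBs miR-10a-5p differed by 1.76 at D7, 1.96 at D14 and 1.14 at D28, with 30.9%, 30.5% and 10.1% of all miRNAs passing, and the difference at D28 did not pass without FB D28 replicate 4 (1.07). Because the mean of the other 3 cell types includes the fall in CMs, a value for FBs or HCs is not a change of that cell type alone.

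The remaining miRNAs of the Hox clusters and the nearest sequence relatives were read for comparison. miR-615-3p, encoded at chr15:103014910-103015001 in an intron of Hoxc5, was the only one of the other 5 Hox-cluster sequences with enough counts to test, and FBs held 1935 of its 2226 counts. In FBs it rose by 2.38 ± 0.51 at D3, 2.85 ± 0.52 at D7 and 1.597 ± 0.52 at D14 (adjusted p = 0.000497, 9.28e-05 and 0.0263, edgeR quasi-likelihood test). The call at D14 was lost without D0 replicates 3 or 4 (1.30 and 1.56) or D14 replicate 1 (1.37). In HCs it rose at D7 by 1.12 ± 0.47 (adjusted p = 0.0492), and this call was lost without D0 replicates 2, 3 or 4 (0.97, 1.12 and 0.87) or D7 replicates 1, 2, 3 or 4 (1.14, 1.08, 1.23 and 1.12).

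The relatives miR-99a-5p, miR-99b-5p and miR-100-5p carry the seed ACCCGUA, which is not that of miR-10. In HCs all 3 fell at D1, D3 and D7, miR-100-5p most at D3, by 2.04 ± 0.26 (adjusted p = 3.17e-07, edgeR quasi-likelihood test), and by 1.58 with library size alone. These were days on which miR-10a-3p rose in the same libraries. All 3 passed downward at D14 as well, where none passed with library size alone (-0.47 for miR-100-5p), and the call of miR-100-5p was lost without D0 replicates 1, 2 or 4 (-0.71, -0.64 and -0.64) or D14 replicates 2 or 3 (-0.70 and -0.65). The same 5 libraries decided the call of miR-99a-5p (-0.66, -0.59, -0.59, -0.65 and -0.62), and all of them but D0 replicate 1 that of miR-99b-5p (-0.63, -0.55, -0.63 and -0.54). In CMs all 3 passed downward from D3 to D28 with TMM, but the direction depended on the scaling. With library size alone none passed at D3, miR-99a-5p stood above D0 at D7 (0.79) and D14 (1.06), and so did miR-100-5p (0.58 and 0.88), whereas miR-99b-5p stayed below D0 (-0.60 and -0.65). With TMM the change of miR-99a-5p was -1.56 ± 0.57 at D7, lost without CM D0 replicate 3 (-1.35) or CM D7 replicate 1 (-1.34), and -1.53 ± 0.57 at D14, lost without CM D0 replicate 3 (-1.34). In FBs miR-99a-5p and miR-100-5p fell at D3 by 1.01 ± 0.15 and 0.99 ± 0.15 and also passed with library size alone, while miR-99b-5p fell by 0.56 ± 0.17, which did not pass with library size alone (-0.24) and was lost without D0 replicate 2 (-0.34) or D3 replicate 1 (-0.46). In ECs miR-99b-5p alone of the 3 passed, with a rise of 1.55 ± 0.27 at D28 (adjusted p = 5.55e-05).

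Likeness to the members was read as Pearson's r over the 24 group means of log2 CPM scaled with TMM, among the 299 miRNAs that averaged 10 CPM or more, with no test, since the groups share libraries of 4 cell types. miR-10a-5p was most like miR-10b-5p (r = 1.00), miR-3535 (0.85) and miR-139-3p (0.83). miR-10a-3p was most like miR-342-3p (0.87), miR-450b-3p (0.84) and miR-150-5p (0.81), the last of which is known from lymphocytes. In these libraries the mean of miR-150-5p was nearly as high in ECs as in HCs. miR-10b-3p was most like miR-335-5p (0.86), miR-23a-3p (0.80) and miR-132-3p (0.80). miR-196a-5p was most like miR-652-3p (0.82), miR-338-5p (0.79) and miR-326-3p (0.75), and miR-196b-5p was most like miR-338-5p (0.78), miR-652-3p (0.72) and miR-147-5p (0.72). These neighbours depended on the scaling. With library size alone miR-139-3p held rank 12 for miR-10a-5p and miR-150-5p rank 11 for miR-10a-3p, and for miR-10b-3p miR-23a-3p held rank 31 and miR-132-3p rank 9. For miR-196a-5p miR-326-3p held rank 8, and for miR-196b-5p miR-652-3p held rank 9 and miR-147-5p rank 12, while the others named stayed within the first 3.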

How the data were processed

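Small RNA of CMs, ECs, FBs and HCs was sequenced in 96 libraries. The authors trimmed adaptors, removed reads under 18 nt and aligned reads to miRBase v21 with the nf-core smrnaseq pipeline, and they deposited raw counts of alignments per mature miRNA and per hairpin, 192 tables in all. The submitters' processing notes name Trim Galore, SAMtools and Bowtie2, and their versions and settings are not given in the sources used here. The line of unaligned reads, 25.6% to 83.0% of a mature table, entered neither library sizes nor tests, and hairpin counts served only for the sums given at the end. How reads that match near-identical sequences were counted is not stated.

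Changes were tested with edgeR 4.0.16 in R 4.3.3 (TMM, filterByExpr, quasi-likelihood test, Benjamini-Hochberg adjustment over all miRNAs tested, threshold 0.05), within each cell type on 24 libraries and between cell types on 96. CPM is the count scaled by the mature total of the library. For hairpins that averaged 10 counts or more per arm, limma 3.58.1 tested the log2 ratio of the arms (pseudocount 0.5). Paralog ratios were tested with exact permutation tests or 100000 resamples (scipy 1.17.1). Sequences and positions came from RefSeq and GENCODE on GRCm38. The fits were tested on simulated counts.

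The groups came from the labels. Libraries of a group were pools of different mice, and p-values measure the spread between these pools. The cell types of a day came from the same mice. No 2 libraries held identical counts. The study removed 3 libraries without naming them, and all 96 were kept here. The alternatives were DESeq2 1.42.0, library size alone, no filter on low counts, a replicate block, each library left out in turn, removal of EC D28 replicate 3, FB D0 replicate 2 and HC D0 replicate 3 together, a pseudocount of 5 and a minimum of 50 counts per arm. Members, lists and tests were chosen with earlier results of these data known. Named were the 6 members, the other 5 Hox-cluster miRNAs, 3 sequence relatives, the cell type markers and, per member, the 3 miRNAs most like it. The 3p ratio, and its values without HC D0 replicate 3, were added after the data had been seen.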

Additional observations from a re-analysis of the deposited data

Results flagged for a closer look

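Of 148 groups of 4 libraries tested for a library far from the other 3 (Dixon's test), 8 held one, and chance alone gives about 5% of groups. For miR-10a-5p this was EC D14 replicate 3 with 11615 CPM. For miR-10b-5p it was the same library with 10682 CPM and EC D3 replicate 1 with 11335 CPM. For miR-10a-3p it was CM D3 replicate 3 with 4.18 CPM, EC D3 replicate 3 with 53.6 CPM and HC D0 replicate 3 with 0 CPM, and for miR-10b-3p it was FB D1 replicate 2 with 1.48 CPM. HC D0 replicate 3 also stood apart in the log2 ratio of the 3p arms, at 0, since it held no count of either arm.

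The change of a member in one cell type differed from the mean change of the other 3 in 38 of 120 contrasts (edgeR quasi-likelihood test, log2 differences). Of all 712 miRNAs, from 14 (HCs at D28) to 319 (CMs at D7) passed per cell type and day. In ECs 115, 117 and 118 of them passed at D3, D7 and D14, and in HCs 39 at D14. In CMs miR-10a-5p differed by -1.55, -2.31, -3.12, -3.39 and -3.07 from D1 to D28, and miR-10b-5p by -1.52, -2.25, -3.09, -3.32 and -3.08 in the same order. miR-10a-3p of CMs differed by 0.96 at D3, which did not pass in 11 of 32 fits without 1 library, and by 1.58 at D28. For miR-10b-3p of CMs the fits gave 3.65 at D3, 3.28 at D7 and 3.66 at D14, which rest on a D0 level of 1 count, and that at D7 did not pass without CM D0 replicate 3 (2.68). In ECs miR-10a-3p differed by -1.19, -1.20, -1.39 and -2.38 from D3 to D28. At D28 miR-10a-5p of ECs differed by 1.37, miR-10b-5p by 1.47 and miR-10b-3p by -2.03, and none of these 3 passed without EC D28 replicate 2 (0.67, 0.77 and -1.62). In FBs miR-10a-5p differed by 1.76 at D7, 1.96 at D14 and 1.14 at D28, and miR-10b-5p by 1.78, 1.97 and 1.24, and neither passed at D28 without FB D28 replicate 4 (1.07 and 1.16). In HCs miR-196a-5p differed by 3.11 at D1, which did not pass without CM D0 replicate 4 (1.81), and miR-196b-5p by 2.40 at D1 and 2.25 at D3. These rest in part on CM groups that were nearly without counts of the pair. miR-10a-5p of HCs differed by 0.96 at D3, 1.15 at D7 and 1.17 at D14, and miR-10b-5p by 1.02 at D7. Without 1 library, the first did not pass without CM D3 replicate 4 (0.90), the contrast at D14 did not pass in 12 of 32 fits (1.07 to 1.23), and that of miR-10b-5p did not pass in 9 of 32 (0.92 to 1.09). miR-10b-3p of HCs differed by -2.70 at D3, -2.85 at D7 and -2.21 at D14, the last of which did not pass without HC D0 replicates 1 or 4 (-2.15 and -2.04) or HC D14 replicates 1 or 3 (-1.98 and -1.88). All these contrasts share the libraries of the other cell types.

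The hairpin tables, which no comparison used, held 820420 counts of mir-10a, 456674 of mir-10b, 55 of mir-196a-1, 120 of mir-196a-2 and 423 of mir-196b over all libraries.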

How the results depend on the processing

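Counts of passing results moved by over 1.5 times in few settings, and the cause was not tested where none is given. With library size alone 4 members of CMs and 1 of ECs changed over the days, and 21 changes against D0 passed in HCs. Without a filter on low counts in ECs 1 member changed over the days and 1 change against D0 passed. With a pseudocount of 5 the arm ratios passed at 0 days for miR-10b in ECs and for miR-10a and miR-10b in HCs. Without the 3 libraries that stood apart, miR-10b in ECs and miR-10a in FBs passed at 0 days and miR-10a in HCs at 3.

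Differences that turned sign with library size alone were, for miR-10a-5p, CMs minus FBs over days (-1.60) and at D0 (-0.44) and CMs minus HCs at D0 (-2.08), for miR-10b-5p CMs minus FBs (-0.59) and CMs minus HCs (-2.10) at D0, for miR-10a-3p ECs minus HCs (-0.26) and for miR-10b-3p CMs minus HCs (-1.76). With a pseudocount of 5, which acts on low counts, the miR-10a arm ratio of HCs at D3 turned to 0.052, CMs minus FBs in the miR-10b arm ratio to -0.44 and in the 3p ratio to -0.28, and CMs minus FBs and CMs minus HCs in the miR-196 ratio to 0.00054 and 0.42. When 1 library was left out, ECs minus FBs in miR-196b-5p ran from -0.23, without EC D28 replicate 1, to 0.83.

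When 1 library was left out, the members that changed over days numbered 2 to 3 in CMs, 1 to 4 in ECs, 4 to 6 in FBs and 4 to 6 in HCs, and the changes against D0 numbered 9 to 18, 1 to 4, 5 to 8 and 10 to 16. The miR-10a arm ratio passed at 5 days in CMs, 1 in ECs, 0 to 1 in FBs and 0 to 3 in HCs, and that of miR-10b at 0 to 1 in ECs, 0 in FBs and 1 to 3 in HCs. Between cell types, 29 to 32 member comparisons passed over days, 18 to 24 at D0 and 35 to 42 contrasts of changes, and the arm ratio passed in 3 pairs for miR-10a and 4 to 5 for miR-10b.

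The study took the cell types of a day from the same mice, without stating which libraries share them, and equal replicate numbers could not be shown to pair the samples. Deviations of equal numbers correlated with medians of -0.02 to 0.01 between days (lowest -0.74) and -0.01 to 0.16 between cell types (lowest -0.67). Between cell types the median was higher for equal than for other numbers at D1 (0.09 against -0.02), D7 (0.08 against -0.03) and D14 (0.16 against -0.06). With the replicate number as a block, 1 change against D0 passed in ECs in place of 3, the counts of the other results stayed within 1.5 times, and the calls lost were those of miR-10a-5p (0.60) and miR-10b-5p (0.66) in ECs at D28, miR-10b-3p in FBs at D28 (1.08), CMs minus FBs at D0 in miR-10a-3p (-0.71) and miR-196a-5p (-2.44), and CMs minus FBs in the miR-10b arm ratio (0.64).

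Depth limits miR-10b-3p in CMs and the miR-196 pair in CMs and ECs, which had fewer than 10 counts in most of those libraries, and HC D0 replicate 3, where a count of 0 allows up to 3 counts.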
